A study of Mus musculus with 577 samples.

Results

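The genes of the inhibin and activin system were followed through single granulosa cells and oocytes, pools of 10 granulosa cells and bulk granulosa of the mouse ovary. The 8 members, chosen by gene symbol from the 22060 protein-coding genes of the count tables, were Inha, Inhba, Inhbb, Fst, Acvr1b, Acvr2a, Acvr2b and Tgfbr3. All 8 had a row in every table, so each was measured in all 562 libraries with a gene count column, of 577 samples in all. They had been picked with their differences by cell position and between dissociated and sectioned cells already in view, so the differences between single cells are given as descriptions with no test. The tests made on pools and bulk samples are not independent support either, since their earlier results were also known.

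Inhibin and activin are secreted dimers that share their beta subunits. A dimer of beta subunits is an activin, which drives follicle-stimulating hormone release from the pituitary and acts locally in the follicle, whereas an alpha and a beta subunit together make an inhibin, which restrains that hormone. Activin binds a type II receptor, which recruits a type I receptor that phosphorylates SMAD proteins, follistatin traps activin before it reaches the receptor, and betaglycan holds inhibin on type II receptors and so blocks activin. Granulosa cells are the main source of inhibin in females, and the growing oocyte carries receptors for ligands of this family.

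The ovaries came from 8-week-old female mice. Granulosa cells were cut by laser capture microdissection (LCM) from 15 µm sections and labelled neighboring where they lay next to the oocyte and non-neighboring where they were other granulosa cells of early antral follicles. The sections were alcohol-fixed, or kept for 24 h in formalin in 1 experiment. Single cells were amplified by DRaqL-SC3-seq (31 neighboring and 26 non-neighboring granulosa cells), SMART-Seq v4 3'DE without DRaqL (17 and 17) or with it (20 and 19), LCM-seq (17 and 20) and DRaqL-Smart-seq2 (15 and 19), where DRaqL is the lysis step developed for sections. The formalin-fixed sections (12 and 12) had a protease step added between DRaqL and Smart-seq2. In a further experiment 1 ovary of a proestrus mouse gave 70 laser-captured granulosa cells and 8 oocytes. Cumulus-oocyte complexes of the mouse's other ovary, taken from fully grown follicles and pipetted apart in a cyclic AMP analog, gave 35 granulosa cells and 14 oocytes. These are the cells that passed the authors' quality control, which kept a smaller share of dissociated than of captured granulosa cells. The captured cells were amplified by DRaqL-Smart-seq2 and the dissociated cells by Smart-seq2. Among the dissociated cells a neighboring cell was one attached to the oocyte, and the non-neighboring cells were the other granulosa cells of the complexes. The remaining libraries were 7 pools of 10 granulosa cells per position, 7 bulk samples of the whole granulosa of single follicles, oocytes of primary and of secondary-to-early antral follicles, and mouse embryonic stem cells (mESCs) grown in 2i-LIF, either fresh or laser-captured. Because single cells are not tied to an animal or follicle in the labels, each group of cells counts as 1 sample and has no p-value. The paper states that the amplification methods it compared on sections, alcohol-fixed and formalin-fixed, all used 1 ovary. Agreement between those sets below is therefore not agreement between separate animals. The bulk samples came either from early antral follicles whose oocyte had been removed or from follicles of unknown stage with no oocyte in the section. The labels do not say which sample is which, so follicle stage and the difference between bulk and pools cannot be told apart. Pools and bulk samples are not said to come from separate animals either, so p-values measure the spread between these libraries.

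Levels are read counts scaled to the library total over protein-coding genes (RPM), and differences are between means of log2(RPM + 1), a scale that understates changes of low genes. Library totals ran from 12748 to 17506401 reads over all libraries and from 3811945 to 8259281 in the pools, without molecular identifiers, so intervals cover counting error only. Reads near 3′ ends were counted, so levels are compared between libraries and not between genes. Granulosa cells carried the granulosa list of 10 genes at summed medians of 2983 to 4887 RPM at the neighboring and 3201 to 6329 RPM at the non-neighboring position in the 8 single-cell sets. The 14 oocyte markers had medians of 157 to 2943 RPM at the neighboring against 5.005 to 154.6 RPM at the non-neighboring position, lower in the latter in 8 of 8 sets. The theca and interstitial list went the other way in 8 of 8 sets, with medians of 0 to 181 RPM against 30.4 to 3306 RPM. Of its 5 measured genes, Hsd3b1 averaged at least 1 on the log2 scale at the non-neighboring position in 8 of 8 sets, Cyp11a1 in 7, Lhcgr in 6, the theca enzyme Cyp17a1 in 4 and Star in 2. At the neighboring position Hsd3b1 did so in 7 sets, Cyp11a1 and Star in 1 each, and Lhcgr and Cyp17a1 in 0. For another dataset the paper used Hsd3b1, together with Inhba, as a corpus luteal marker, so this list does not single out theca cells. The part of these markers in the position values below was not tested. In bulk or pooled libraries, fewer cells expressing a gene and less RNA per cell cannot be told apart.

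Inha, encoding the inhibin alpha subunit, lies on chr1:75507077-75510366 (+ strand, GRCm38). Inhbb, the beta B subunit, lies on chr1:119415465-119422248 (- strand). Inhba, the beta A subunit, lies on chr13:16011851-16031621 (+ strand), and Fst, for follistatin, on chr13:114452290-114458951 (- strand). The receptor genes are Acvr1b on chr15:101174067-101213684 (+ strand), Acvr2a on chr2:48814109-48903269 (+ strand) and Acvr2b on chr9:119402118-119434995 (+ strand). Tgfbr3, for betaglycan, lies on chr5:107106570-107289629 (- strand). Since Inhba and Inhbb were high in many of the same cells, the RefSeq promoter windows of this pair are shown (GRCm38.p6, 250 bases before to 50 after the start, 5′ to 3′ on the gene's strand). The window of Inhba is chr13:16011601-16011900 (+ strand) and that of Inhbb chr1:119422199-119422498 (- strand), and both are in lower case throughout because no searched motif fell in them.
Inhba: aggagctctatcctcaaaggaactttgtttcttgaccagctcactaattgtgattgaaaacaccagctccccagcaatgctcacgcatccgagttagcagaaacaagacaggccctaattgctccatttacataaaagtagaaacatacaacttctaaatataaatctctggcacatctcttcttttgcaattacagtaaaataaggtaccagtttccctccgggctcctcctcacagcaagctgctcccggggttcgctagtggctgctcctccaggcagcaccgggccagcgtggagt
Inhbb: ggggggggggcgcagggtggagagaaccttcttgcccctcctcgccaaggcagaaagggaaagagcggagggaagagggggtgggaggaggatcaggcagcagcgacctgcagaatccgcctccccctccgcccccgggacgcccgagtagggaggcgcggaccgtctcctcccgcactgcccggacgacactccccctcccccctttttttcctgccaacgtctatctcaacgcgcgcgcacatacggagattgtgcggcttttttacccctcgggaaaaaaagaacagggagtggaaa
On either strand, the cyclic AMP response element TGACGTCA was found in 1.79% of the 32851 RefSeq promoter windows of this length, its shorter form TGACG, which the former contains, in 20.8%, and the AP-1 motif TGANTCA in 7.81%. None of these motifs occurred in the windows of the 6 members that have one, Inha, Inhba, Inhbb, Acvr1b, Acvr2a and Acvr2b, and the windows shown were 47.7% and 64.3% G and C.

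Every granulosa library held Inha. Its median was 4272 RPM in neighboring and 4918 RPM in non-neighboring DRaqL-SC3-seq cells, and each of the 330 single granulosa cells of the 8 sets had at least 1 read. In the neighboring pools 1 to 7, Inha stood at 6086, 5414, 5630, 2765, 3681, 6999 and 4953 RPM. In the non-neighboring pools 1 to 7 it stood at 1706, 2170, 8392, 5368, 7308, 8918 and 5100 RPM. The positions overlapped, with the lowest and the highest pools both non-neighboring. The fitted log2 difference, non-neighboring minus neighboring, was 0.22 ± 0.32 (SE, n = 7 and 7, edgeR quasi-likelihood test, adjusted p = 0.9994).

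The beta subunits behaved in another way, being near 0 in most pools and high in a single pool of each position. Inhba in the neighboring pools 1 to 7 was 0.97, 0.23, 0, 0, 0, 2407 and 0 RPM. In the non-neighboring pools 1 to 7 it was 0, 0, 9.70, 0, 0, 4305 and 0 RPM. Both pools numbered 6 thus stood apart, the highest of the other 12 holding 9.70 RPM, and the labels do not say whether they came from one follicle. Inhbb was high in the same libraries, at 25.0, 0.23, 0, 0, 0, 1054 and 0.50 RPM in the neighboring pools. The non-neighboring pools held 0, 16.8, 0, 0, 27.97, 1051 and 0 RPM of Inhbb. Of the marker lists, the neighboring pool 6 had 6923 RPM of oocyte and 8.71 RPM of theca markers, and the non-neighboring pool 6 had 66.4 RPM of oocyte and 5239 RPM of theca markers, the latter the highest of the 14 pools. It also held 2078 RPM of blood markers, the highest among them, and 420.5 RPM of luteal markers. Neither gene passed the filter on low counts in this comparison, so no test was made.

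The ratio of beta to alpha subunit reads, log2 of (Inhba + Inhbb + 1)/(Inha + 1) in RPM, put this on one scale. In the neighboring pools it was -7.82, -11.87, -12.46, -11.43, -11.85, -1.02 and -11.69. In the non-neighboring pools it was -10.74, -6.93, -9.62, -12.39, -7.98, -0.74 and -12.32. Both pools numbered 6 stood highest, and no other pool was above -6.93. The mean was -9.73 ± 4.14 (SD, n = 7) in neighboring and -8.67 ± 4.06 (SD, n = 7) in non-neighboring pools, a difference of 1.06 (p = 0.6008, two-sided exact permutation test over 3432 assignments, smallest possible p = 0.0005828). Without the non-neighboring pool 6 the difference was -0.26 (exact permutation p = 0.9207), and without the neighboring pool 6 it was 2.51.

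**Figure D1:**
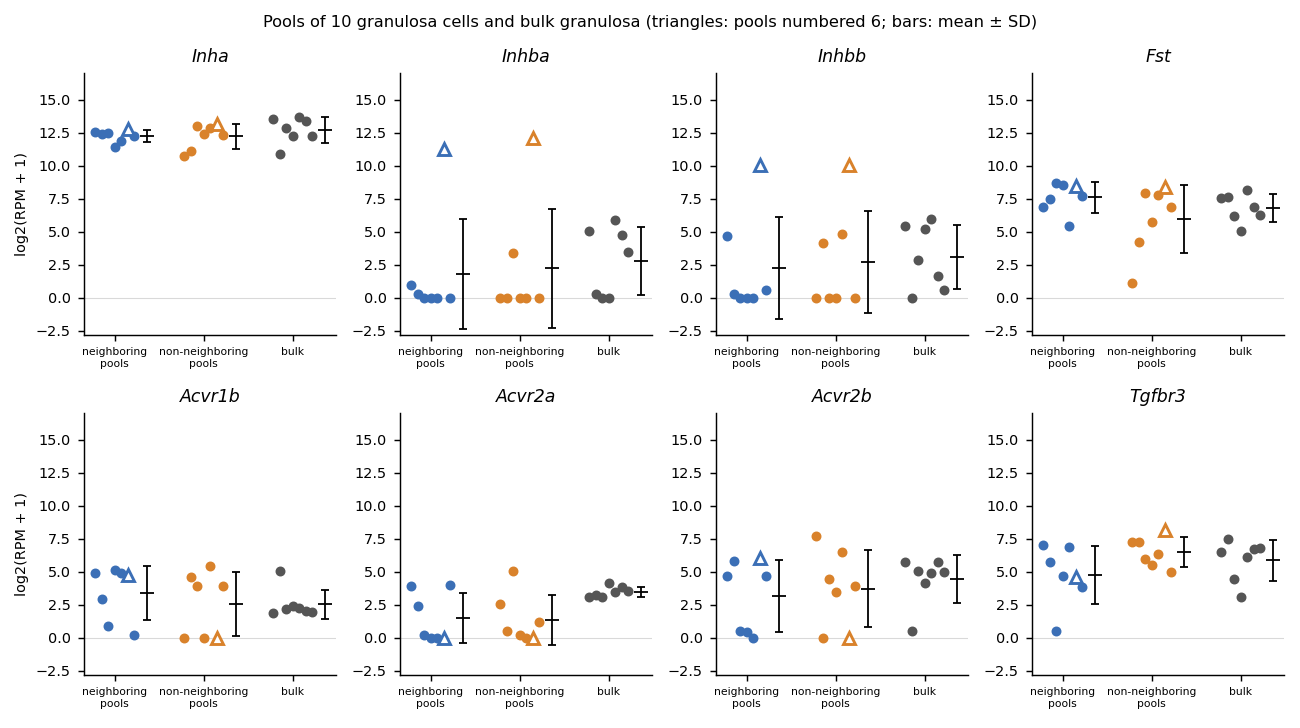
Each panel plots 1 gene, with log2(RPM + 1) on the vertical axis for every neighboring pool (n = 7), non-neighboring pool (n = 7) and bulk sample (n = 7), the bars giving mean ± SD. Open triangles are the pools numbered 6, which alone carry Inhba and Inhbb above 100 RPM, while Inha is high in all 21 libraries.

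Among the 7 bulk samples (numbered 1 to 6 and 8), Inha was 11678, 1881, 7465, 4981, 12923, 10741 and 4909 RPM. Inhba was 32.1, 0.21, 0, 0, 57.7, 26.3 and 9.93 RPM, above 1 RPM in 4 samples and never near the level of the pools numbered 6. Inhbb was 41.1, 0, 6.22, 35.1, 61.9, 2.15 and 0.52 RPM. Bulk samples had no position label and were set against the mean of both pool groups. The log2 difference, bulk minus pools, was 0.57 ± 0.31 (SE) for Inha (edgeR, adjusted p = 0.8525, unadjusted p = 0.0719). For Inhba it was -4.66 ± 2.43 (SE, edgeR, adjusted p = 0.8337), and this value rests on the pools numbered 6, since without the neighboring one it was 0.77 and without the non-neighboring one -0.41. The beta to alpha ratio was -8.43 ± 1.48 (SD, n = 7) in bulk against a mean of -9.20 in the 14 pools (difference 0.77, two-sided exact permutation p = 0.6425). With any 1 library left out the exact permutation p stayed between 0.3042 and 0.7949. With both pools numbered 6 left out the difference was 2.16, given with no p because these pools were chosen for the very level compared.

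Fst in the neighboring pools 1 to 7 was 113.4, 177.5, 416, 371, 43.1, 352 and 210 RPM. In the non-neighboring pools it was 1.20, 17.8, 236, 51.5, 214, 325 and 112.97 RPM, so the 2 lowest pools were non-neighboring and the rest overlapped. The fitted difference was -0.83 ± 0.78 (SE, n = 7 and 7, edgeR, adjusted p = 0.9994). In bulk samples Fst ranged from 31.9 to 277 RPM with a median of 113.3 RPM.

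Tgfbr3 in the neighboring pools 1 to 7 was 129, 52.5, 0.41, 24.8, 116.3, 22.7 and 13.4 RPM. In the non-neighboring pools it was 150, 148, 60.1, 44.1, 77.8, 278 and 29.5 RPM. The 3 highest of the 14 pools were non-neighboring and the 4 lowest neighboring, with overlap between. The fitted difference of 1.37 ± 0.83 (SE, n = 7 and 7) had an unadjusted p of 0.1135 and an adjusted p of 0.9994 (edgeR). Bulk samples lay between 7.52 and 180 RPM.

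The receptor genes varied widely between pools, and all groups overlapped. Acvr1b, the activin type I receptor, ranged from 0.165 to 33.3 RPM in neighboring pools and from 0 to 42.6 RPM in non-neighboring pools. Acvr2a, a type II receptor, was between 7.33 and 16.4 RPM in all 7 bulk samples but at 0 in 5 of 14 pools. Acvr2b, the other type II receptor, ranged from 0 to 64.9 RPM and from 0 to 208 RPM in the pools of either position. Of the members, 5 passed the filter on low counts in the comparison of pools and 0 of them passed the test, where 0.474% of the 9704 genes tested did (46 genes, all lower in non-neighboring pools, with 399 at an unadjusted p under 0.05). Between bulk and pools all 8 passed the filter and 0 passed the test, where 0.101% of 11917 genes did (12 genes, with 743 at an unadjusted p under 0.05). DESeq2 also called 0 members in either comparison. Between bulk and pools it gave an adjusted p to 1058 genes only, and a member without one could not be called. The median log2 difference of the members that passed the filter was 0.22 against 0.02 for all genes in the pools, and -0.26 against -0.09 in bulk.

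Of 38 further ligands, receptors, binding proteins, SMAD proteins and the convertases that cleave the precursors, 22 could be tested between pools and 27 between bulk and pools, with 0 passing in either direction. The smallest adjusted p-values in the pools belonged to Fstl1, a secreted follistatin-like protein (4.62 ± 1.65, SE, edgeR adjusted p = 0.7845) and Tgfb3, a transforming growth factor (3.22 ± 1.25, adjusted p = 0.8859), with Tgfbr1, a type I receptor, next by unadjusted p (2.00 ± 1.32, unadjusted p = 0.1443), its adjusted p of 0.9994 being shared with other genes of the list. In bulk they belonged to Acvr1 (2.66 ± 1.17, SE, edgeR adjusted p = 0.7014), Bmpr2 (0.82 ± 0.46, adjusted p = 0.8835) and Smad7, an inhibitory SMAD (-2.24 ± 1.40, adjusted p = 0.9325). By contrast 9 of the 14 oocyte markers were lower in non-neighboring pools, with a median log2 difference of -6.08 over the list, while 0 of the 6 granulosa markers tested differed.

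Over the 21 pool and bulk libraries, 3 members averaged at least 4 on the log2 scale, and their patterns, with each of the 3 groups centred on its mean, were compared over the 5896 genes at that level. Inha was most like Hsd17b1, which converts estrone to estradiol (r = 0.842 across 21 libraries), Thada (r = 0.816) and Sema7a (r = 0.813). Among the genes most like Fst were Tex15 (r = 0.896) and Ext1 (r = 0.871). Tgfbr3 was most like Mef2c (r = 0.835), Gab2 (r = 0.826) and Sema5a (r = 0.816). Inha and Fst correlated with each other at r = 0.604, and Tgfbr3 with neither (r = -0.136 with Inha and -0.14 with Fst). These are descriptions over libraries that share preparation and differ in the number of cells.

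In single granulosa cells, a difference of at least 1 was called between group means where a gene averaged at least 1 in either group. Of the members so tested, 1 of 7 was called in DRaqL-SC3-seq, where 19.4% of all genes tested were, 1 of 6 in SMART-Seq v4 3'DE (31.4% of all genes), and 3 of 7 with DRaqL added (28% of all genes). The counts were 3 of 8 in LCM-seq (27.7%), 2 of 8 in DRaqL-Smart-seq2 (22%), 3 of 8 in formalin-fixed cells (34.6%), 2 of 8 in the same-mouse LCM cells (20.3%) and 5 of 8 in the same-mouse dissociated cells (51.6%). The median difference of all genes tested was between -0.26 and 0.22 in 7 sets and 0.92 in the dissociated cells, so values in the latter are best read against that shift. Inha was called only in LCM-seq (1.06), Inhbb in LCM-seq (1.65) and the same-mouse LCM cells (1.10), and the receptors in scattered sets with both signs (Acvr1b 1.32 in DRaqL-Smart-seq2 and -1.21 in formalin-fixed cells).

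Non-neighboring cells held more Inhba than neighboring cells in 6 of 8 sets, with differences from -0.22 to 4.61 on the log2 scale. In LCM-seq the 17 neighboring cells ranged from 0 to 479 RPM with a median of 1.99 RPM, and the 20 non-neighboring cells from 0 to 7523 RPM with a median of 359 RPM. The means were 2.66 ± 3.03 and 7.26 ± 4.74 (SD over cells), a difference of 4.61. In DRaqL-Smart-seq2 the neighboring cells ranged from 0 to 62.4 RPM with a median of 0 and the non-neighboring cells from 0 to 2262 RPM with a median of 77.98 RPM (difference 4.32). The groups overlapped in both sets, because some non-neighboring cells had no read. Within sets of cells that share a library label, the mean differences were 4.54 and 4.58. The difference was 1.78 in SMART-Seq v4 3'DE with DRaqL, 1.78 in formalin-fixed cells and 2.53 in dissociated cells. In DRaqL-SC3-seq it was -0.18, in SMART-Seq v4 3'DE without DRaqL, where 1 cell of each position had a read, -0.22, and in the same-mouse LCM cells 0.06 (-0.91 within library sets). Leaving out granulosa cells with oocyte markers above 10% of an oocyte's level gave 1.13 in the dissociated and 2.785 in the formalin-fixed cells. The same step gave 1.98 in SMART-Seq v4 3'DE with DRaqL, -0.64 in DRaqL-SC3-seq and -0.07 in the same-mouse LCM cells. In DRaqL-SC3-seq 13 of 31 neighboring and 3 of 26 non-neighboring cells were above that level. As a ratio of summed counts, which the highest cells dominate, the DRaqL-SC3-seq value was 0.75.

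Tgfbr3 was higher in non-neighboring cells in 7 of 8 sets, from -0.76 to 2.71. In DRaqL-SC3-seq the neighboring cells ranged from 0 to 148 RPM with a median of 3.28 RPM, and the non-neighboring cells from 0 to 882 RPM with a median of 20.7 RPM (means 2.08 ± 1.97 and 4.63 ± 3.21, SD over cells). This difference of 2.55 is not independent evidence, because the study drew its list of genes high at the non-neighboring position from these cells and that list holds Tgfbr3. It was 2.98 in the cells numbered up to GC069 (1.57 against 4.55) and 1.54 in those from GC073 (3.32 against 4.86), runs of cells in which the oocyte markers also differed, with neighboring medians of 1617 and 6709 RPM. Dissociated cells had reads in 1 of 14 neighboring and 13 of 21 non-neighboring cells, a difference of 2.71 beside a median of 0.92 over all genes tested. LCM-seq, DRaqL-Smart-seq2 and the same-mouse LCM cells gave 0.44, 0.43 and 0.50, which are small beside SDs of 1.88 to 3.46 over cells. As ratios of summed counts, 2 of these 7 sets were not higher, SMART-Seq v4 3'DE with DRaqL (-0.17) and the same-mouse LCM cells (-0.44).

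Fst went mostly the other way, being higher in non-neighboring cells in 2 of 8 sets. DRaqL-SC3-seq, 1 of these, gave 0.26, and -0.59 without the cells carrying oocyte RNA. Its cells up to GC069 gave 0.13 and those from GC073 gave 0.02. The latter run had less Fst (neighboring means of 4.955 against 7.607) and more oocyte RNA (neighboring medians of 6709 against 1617 RPM). The part of the run in the value of -0.59 was not tested. Fst was lower in non-neighboring cells by at least 1 in SMART-Seq v4 3'DE (-1.08), the same method with DRaqL (-1.18) and the same-mouse LCM cells (-1.07). In the second of these the neighboring cells ranged from 54.4 to 899 RPM with a median of 392 RPM, and the non-neighboring cells from 4.59 to 492 RPM with a median of 204 RPM. In dissociated cells the sign was opposite, with medians of 591 and 1667 RPM (difference 1.67). That difference was 0.36 within library sets, and the neighboring cells there had a median depth of 87883.5 reads against 132194.

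**Figure D2:**
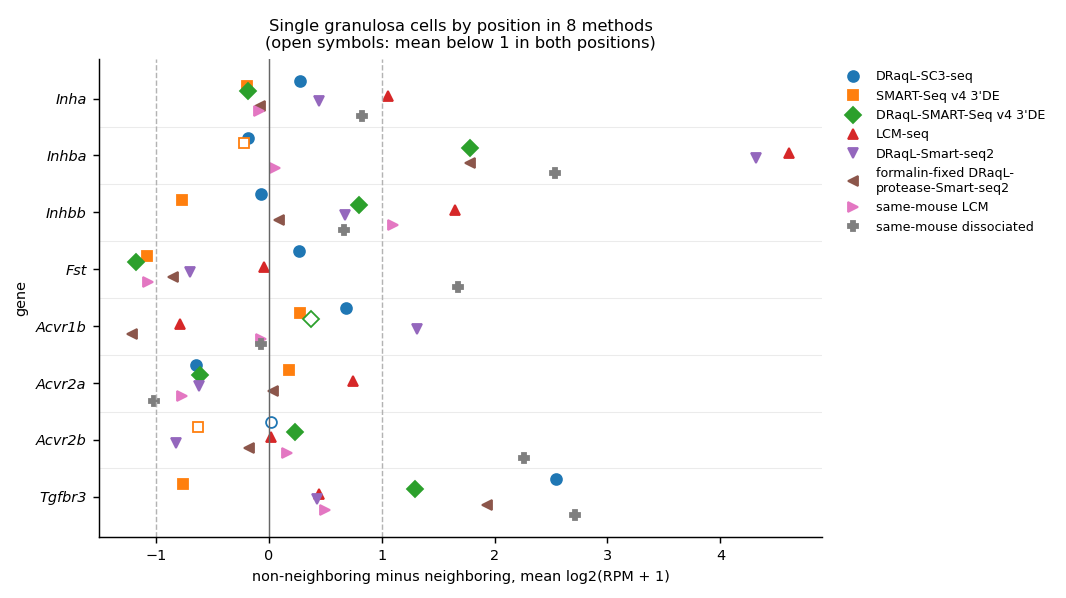
For each gene (vertical axis) the horizontal axis gives the difference of mean log2(RPM + 1), non-neighboring minus neighboring, with a symbol for each of the 8 sets of single granulosa cells and dashed lines at -1 and 1, open symbols marking means below 1 in both positions. Inhba reaches 4.61 and Tgfbr3 2.71, and most Fst symbols lie left of 0.

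Inhba and Inhbb ranged widely between cells of one group, with no read in many of them, and many cells were high in both. Of the 330 single granulosa cells, 78 had at least 100 RPM of Inhba, and 59 had at least 100 RPM of both genes, which is 75.6% of the cells high in Inhba and 52.7% of those high in Inhbb. Of these 59 cells, 24 were among the 35 dissociated cells, where 74.3% were high in each gene. In DRaqL-SC3-seq 7 of 57 cells were high in Inhba (12.3%, exact Clopper-Pearson interval 5.08% to 23.7%), 12 in Inhbb, and 7 in both. In LCM-seq the counts were 17, 21 and 15 of 37 cells. In formalin-fixed cells 5 were high in Inhba and 8 in Inhbb but 1 of 24 in both. In SMART-Seq v4 3'DE with DRaqL 10 were high in Inhba and 6 in Inhbb but 3 of 39 in both. The correlation of log2 values across cells ran from -0.08 in SMART-Seq v4 3'DE to 0.79 in DRaqL-SC3-seq, over cells that share libraries and depth.

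Cells high in Inhba clustered in certain library sets, that is, groups of cells sequenced under one library label. In LCM-seq 8 of 9 cells of one set were high and 1 of 9 of another. In SMART-Seq v4 3'DE with DRaqL 6 of 9 cells of one set were high and 0 of 10 of another, and in the formalin-fixed cells 5 of 12 against 0 of 12. Which follicle a set came from is not labelled, so library set and follicle cannot be told apart.

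**Figure D3:**
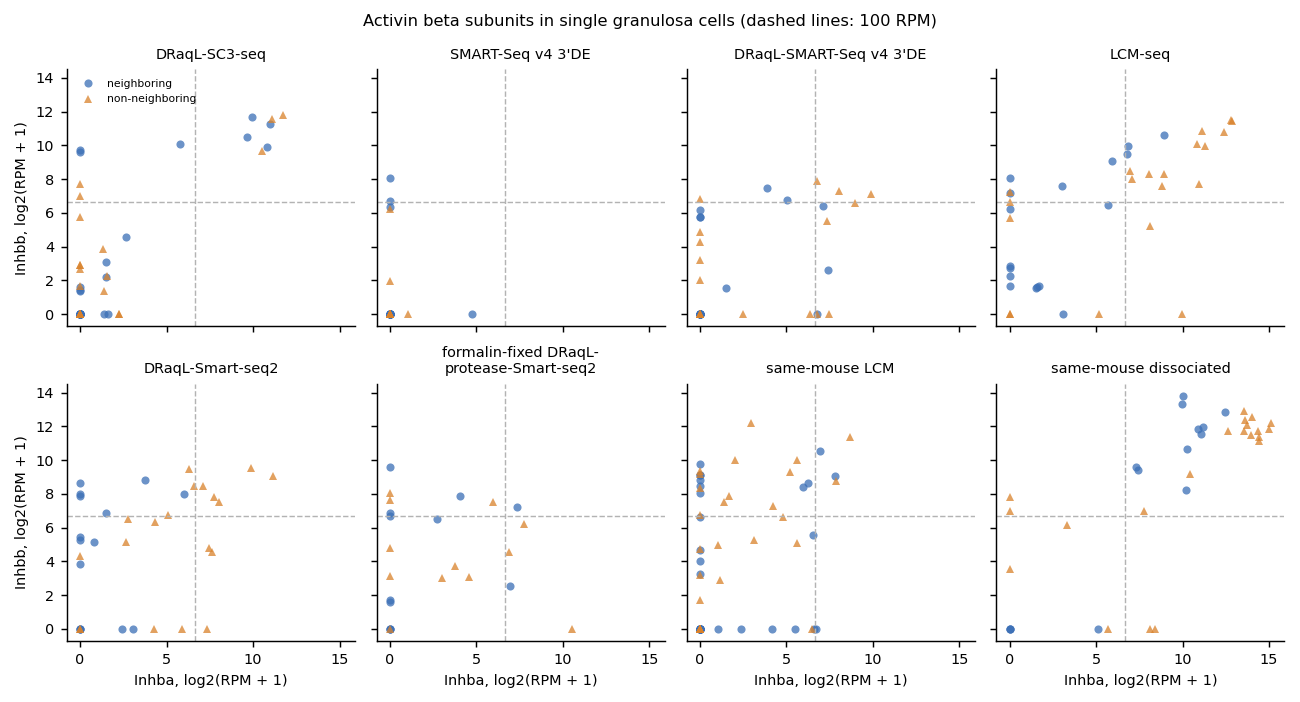
Each panel shows 1 set of single granulosa cells, with log2(RPM + 1) of Inhba on the horizontal and of Inhbb on the vertical axis, circles for neighboring and triangles for non-neighboring cells, and dashed lines at 100 RPM. Cells above both lines number 7 of 57 in DRaqL-SC3-seq, 15 of 37 in LCM-seq and 24 of 35 in the dissociated cells.

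The highest Inhba levels of the series were in the dissociated granulosa cells of the same-mouse experiment. Inhba ranged from 0 to 5634 RPM with a median of 1023 RPM in the 14 neighboring cells, and from 0 to 35820 RPM with a median of 11919 RPM in the 21 non-neighboring cells. In the laser-captured cells of the same mouse it ranged from 0 to 223 and from 0 to 403 RPM, with a median of 0 at either position. The means were 9.08 ± 5.12 in 35 dissociated and 1.74 ± 2.69 in 70 captured cells (SD over cells), a difference of 7.34. Reads of Inhba were found in 82.9% of dissociated and 37.1% of captured cells, and in 77.1% and 20% when each library was thinned to 12748 reads, the depth of the shallowest.

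Inhbb followed, with medians of 1197 and 2625 RPM in neighboring and non-neighboring dissociated cells against 0 and 25.9 RPM in captured cells (difference 4.68 over both positions). Inha had medians of 6302 and 11941 RPM against 1242 and 1310 RPM (difference 2.48). Fst had medians of 591 and 1667 RPM against 410 and 215 RPM (difference 1.98, being 0.44 among neighboring and 3.18 among non-neighboring cells). Tgfbr3 and Acvr2a differed the other way, by -2.12 and -2.07, with reads of Tgfbr3 in 40% of dissociated and 75.7% of captured cells. After thinning those shares were 14.3% and 35.7%. Taking neighboring and non-neighboring cells alone gave 5.85 and 8.325 for Inhba and -3.50 and -1.285 for Tgfbr3.

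High Inhba was again uneven over library sets. In the first 3 sets of dissociated cells all 10, all 5 and all 5 cells were high in both Inhba and Inhbb, and in the other 4 sets 2 of 3, 3 of 8, 0 of 2 and 1 of 2 cells were high in Inhba, with the same counts for Inhbb. Isolation from tissue, the cyclic AMP analog, the lysis, the cDNA amplification, the ovary and the stage of the follicles all differed between the groups. So did the place of the cells in the follicle, and these differences cannot be told apart. The dissociated cells kept their granulosa markers, at medians of 2983 and 4574 RPM against 4887 and 4753 RPM in captured cells, although the lowest dissociated cell had 88.3 RPM. Their theca list stood at medians of 10.98 and 3306 RPM against 0 and 30.4 RPM, although Cyp17a1 and Star averaged below 1 on the log2 scale. Of the 4 blood genes, 3 averaged at least 1 in both dissociated groups and 0 in both captured groups. Their summed level had a median of 0 in all 4 groups, with highest cells of 70760 and 18310 RPM in dissociated against 131.7 and 615.5 RPM in captured cells. The part of these markers was not tested. In all, 6 of 8 members were called, 4 higher and 2 lower, where 50.2% of all genes tested were called. The median difference of all genes tested was 0.14.

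In oocytes of the same mouse 2 members were called higher and 2 lower in dissociated cells, of 8 tested, where 40.6% of all genes were. Fst was 1.65 and Inhba 1.17 higher, and Acvr2b and Acvr2a differed by -1.32 and -1.25. Reads of Inhba occurred in 6 of 14 dissociated and 1 of 8 captured oocytes, up to 92.03 and 8.61 RPM, so most of these libraries were at 0. In mESCs 0 of the 5 members tested were called, where 9.97% of all genes were. Inha and Inhba had no read in 45 fresh mESCs, which allows a share of cells with a read of up to 6.67%. The median Fst level was 5.25 RPM in fresh and 2.29 RPM in laser-captured mESCs, a difference of 0.38.

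**Figure D4:**
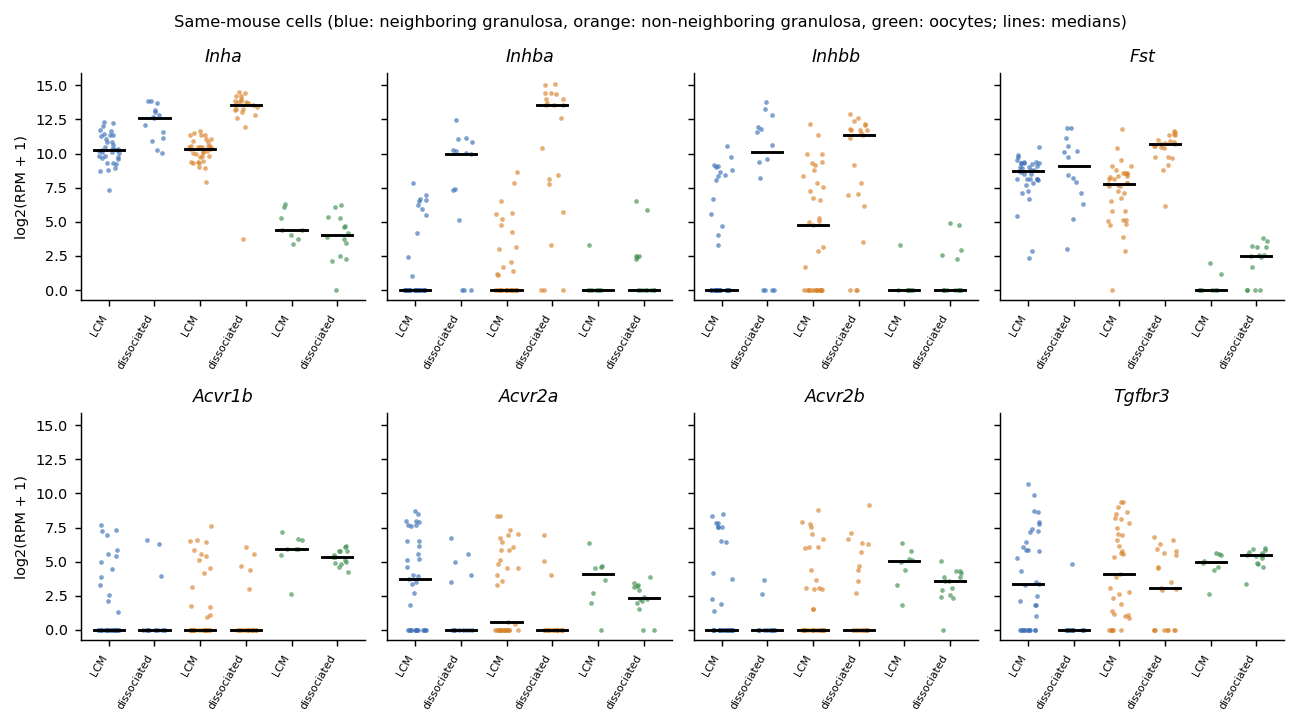
Each panel plots log2(RPM + 1) of 1 gene in every single cell of the same-mouse experiment, laser-captured or dissociated, with neighboring granulosa cells in blue, non-neighboring in orange and oocytes in green, and lines at the medians. Inhba medians are 0 in captured granulosa cells and 1023 and 11919 RPM in dissociated neighboring and non-neighboring cells.

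The alpha subunit and follistatin were higher in granulosa cells, and the activin receptors Acvr1b and Acvr2b in oocytes, in all 6 methods that had both cell types. Counts of members called between oocytes and granulosa cells were 7 of 8 in DRaqL-SC3-seq (76.5% of all genes tested), 6 of 7 in SMART-Seq v4 3'DE (77.1%), 7 of 8 with DRaqL added (62.1%), 7 of 8 in formalin-fixed cells (61.7%), 6 of 8 in the same-mouse LCM cells (75%) and 8 of 8 in the dissociated cells (77.3%). The difference of Inha, oocytes minus granulosa cells, ran from -3.14 in formalin-fixed to -8.88 in dissociated cells. That of Fst ran from -3.08 to -7.65. Acvr1b was higher in oocytes in all 6, by 2.39 to 4.17, with reads in 100% of oocytes and 15.8% of granulosa cells in DRaqL-SC3-seq. Acvr2b was higher by 1.49 to 3.78. Acvr2a was higher in oocytes in 5 of 6 methods, the exception being formalin-fixed cells (-1.32).

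Tgfbr3 was called higher in oocytes in 2 of 6 methods, SMART-Seq v4 3'DE (1.011) and the dissociated cells (3.32), and the other 4 differences lay between -0.31 and 0.70. In DRaqL-SC3-seq the granulosa cells ranged from 0 to 882 RPM and the oocytes from 0 to 60.6 RPM, with means of 3.24 ± 2.89 and 3.59 ± 1.44 (SD over cells). In the dissociated cells oocytes held a median of 44.1 RPM against 0 in granulosa cells (difference 3.32). The median difference of all genes tested was itself 1.04 to 1.93 in favour of oocytes. Set against that shift, Acvr1b and Acvr2b were still higher in oocytes in 6 and 5 of 6 methods, and Acvr2a in 2, SMART-Seq v4 3'DE without DRaqL (2.09 against 1.93) and with it (1.06 against 1.04).

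**Figure D5:**
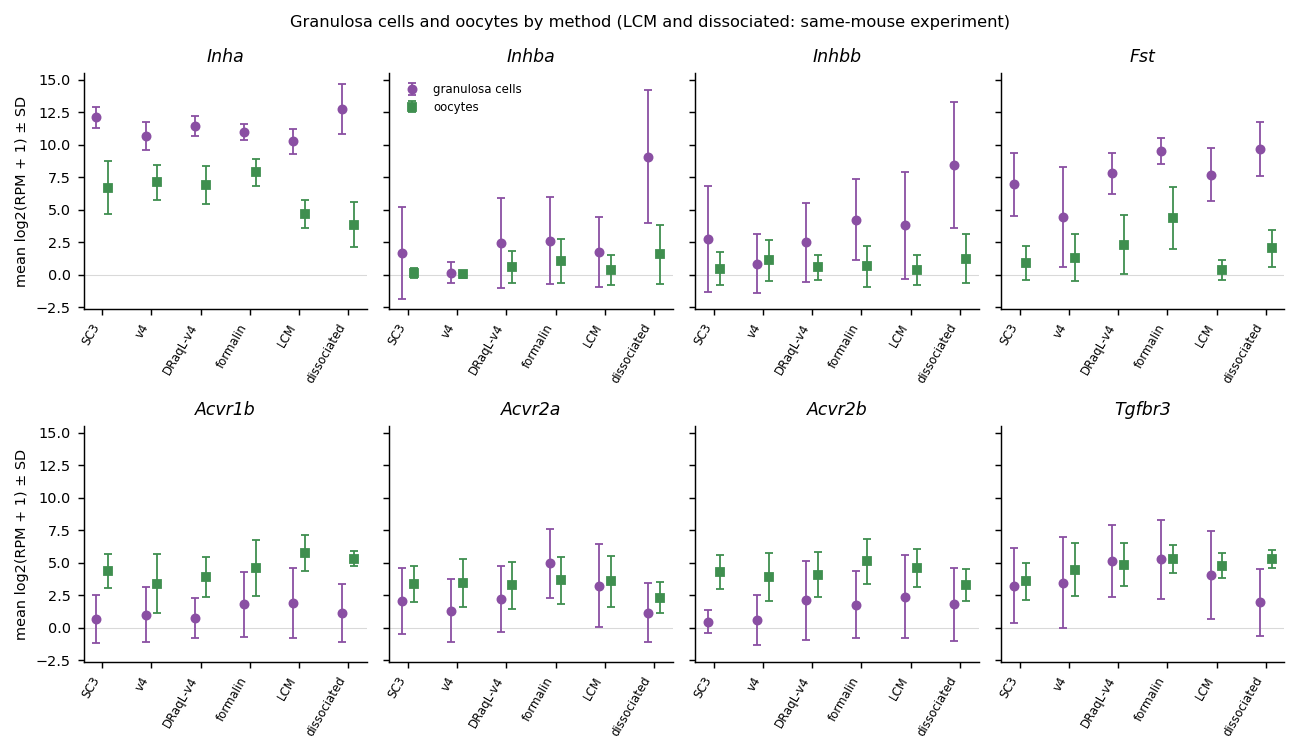
Each panel gives, for 1 gene, the mean log2(RPM + 1) ± SD over single cells in granulosa cells (circles) and oocytes (squares) for the 6 methods with both cell types. Inha and Fst lie higher in granulosa cells and Acvr1b and Acvr2b higher in oocytes in every method.

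Oocyte libraries were not free of Inha, and the level followed the follicle stage. In DRaqL-SC3-seq the 14 primary oocytes ranged from 35.5 to 996 RPM with a median of 296 RPM, and the 30 secondary-to-early antral oocytes from 4.02 to 733 RPM with a median of 45.7 RPM. These were 6.33% and 0.98% of the granulosa median, while the summed granulosa markers stood at 9.35% and 15.0% of theirs. In formalin-fixed primary oocytes the order was the other way, at 24.2% for Inha and 19.7% for the markers. Inha had the lower share in the other oocyte groups so compared. Dissociated oocytes had a median of 15.1 RPM, or 0.16% of the granulosa level, beside 13.8% for the granulosa markers. That sum rests on part of the list, since 5 of its 10 genes averaged at least 1 on the log2 scale there. Foxl2, Fshr, Hsd17b1, Amh and Gatm were below 1, the last 2 also in both groups of dissociated granulosa cells. In DRaqL-SC3-seq 8 of the 10 genes averaged at least 1 in primary and 9 in secondary-to-early antral oocytes. Whether granulosa RNA accounts for the Inha reads was not tested.

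Between stages Inha was lower in secondary-to-early antral than in primary oocytes in all 4 methods, with differences of -1.02 to -2.04. Acvr1b was higher in the later oocytes in all 4, by 0.78 to 3.91, and in SMART-Seq v4 3'DE it ranged from 0 to 14.1 RPM in 7 primary and from 11.4 to 57.1 RPM in 11 later oocytes, a narrow overlap. Tgfbr3 was higher in later oocytes in 3 of 4 methods (1.54, 3.42 and 0.06, the second without overlap, at 0.99 to 28.1 against 39.6 to 132.5 RPM) and lower in SMART-Seq v4 3'DE with DRaqL (-1.10). Members called were 5 of 6 in DRaqL-SC3-seq (46.9% of all genes), 5 of 7 in SMART-Seq v4 3'DE (48.7%), 4 of 6 with DRaqL (57.3%) and 4 of 7 in formalin-fixed oocytes (51.7%).

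For 8 oocytes, serial sections gave 2 libraries each. The median absolute difference of log2(RPM + 1) between sections of one oocyte was 0.28 for Inha, against 1.09 over pairs of libraries from different oocytes, and 0.45 against 0.95 for Tgfbr3. For Acvr1b it was 0.55 against 0.47 and for Acvr2b 1.23 against 1.05, so the differences of these receptor genes were no smaller within an oocyte than between oocytes. The largest difference within an oocyte was 4.75, for Inha.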

How the data were processed

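The authors trimmed reads (fastp 0.20.0, cutadapt 1.16), aligned them with HISAT2 2.1.0 to GRCm38 and counted them per gene near annotated 3′ ends (HTSeq 0.10.0, versions from the submitters' processing notes). The deposited values were raw counts per gene without molecular identifiers. Here counts of the 22060 protein-coding genes were scaled to RPM, and log2(RPM + 1) was averaged per group. The tables hold up to 44.7% of reads on other genes, left out of the totals. Groups and positions came from the GEO labels. Pools and bulk samples were compared with edgeR 4.0.16 (quasi-likelihood, TMM, filterByExpr, Benjamini-Hochberg threshold 0.05) in R 4.3.3, with DESeq2 1.42.0 as an alternative, and the subunit ratio by exact permutation (scipy 1.17.1). The edgeR step was tested on simulated data first. Single-cell groups counted as 1 sample each and had no test. Replicate pools correlated at r = 0.584 to 0.851, and none of the libraries were identical.

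The members and gene lists were chosen with earlier results of these data known. Named were the 8 members, the pathway genes past the threshold or else the 3 with the smallest adjusted p, and the 3 genes most like each member that averaged at least 4, of which 1 is not reported here. The 100 RPM limit and the omission of both pools numbered 6 were chosen after seeing the data. Pools share replicate numbers, but the labels do not say that a number marks a shared animal or day.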

Additional observations from a re-analysis of the deposited data

Results flagged for a closer look

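In 73 groups of 4 to 10 libraries, a library was taken as far from the others when its gap to the nearest one exceeded Dixon's 95% critical value for the range. Chance does this in about 1 of 20 groups of normally distributed values, and 17 libraries or ratios were flagged. Where all other libraries are at 0, a single library with a read is flagged whatever its level, so that rate does not hold for such groups. Levels below are log2(RPM + 1). Among granulosa libraries, Inhba stood apart at 11.23 in a neighboring pool and 12.07 in a non-neighboring pool, both numbered 6. The beta to alpha subunit ratio of that neighboring pool was -1.016 on the log2 scale. In bulk, sample 2 held the highest Acvr1b (5.012) and the lowest Acvr2b (0.4999).

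In oocytes, the high libraries were mostly the few with any read. Among primary oocytes these were Inhbb at 1.651 and Fst at 5.421 (SMART-Seq v4 3'DE with DRaqL), Fst at 4.48 (without DRaqL), and Inhba at 0.5857 and Inhbb at 2.951 (formalin-fixed). Among secondary-to-early antral oocytes they were Inhbb at 4.938 (formalin-fixed), and Inhba and Inhbb, each at 3.264 (same-mouse LCM). Low libraries were Tgfbr3 at 0 (SMART-Seq v4 3'DE with DRaqL), Acvr1b at 0 (formalin-fixed), and Acvr1b at 2.645 and Tgfbr3 at 2.64 (same-mouse LCM).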

How the results depend on the processing

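No setting called a member between pools or between bulk and pools. All-gene calls between pools were 46 (0.474% of genes tested), against 1.22% with DESeq2, 0.94% with all 21 libraries, 5 genes with the replicate block, 10 without both pools numbered 6 and 3 to 56 with 1 pool left out. Between bulk and pools they were 12, against 90 with DESeq2 (of 1058 genes with an adjusted p), 33 without TMM, 463 without a filter, 136 over all genes and 0 to 57 with 1 library left out. The subunit ratio with the replicate block was 1.061 (exact permutation p = 0.3906). Same-numbered pools correlated at r = 0.00775 to 0.241, over 0.1 in 1 of 7 pairs. Their median r was 0.0725, against -0.0118 between pools of other numbers, and 8 of 14 pools correlated best with their own number. The labels do not say that a number marks a pair, so the main tests left the numbers out. Whether the numbers pair the pools is not known. With 1 library left out the ratio ranged from -0.2619 to 2.514 between pools and from 0.4891 to 1.422 between bulk and pools. The latter was -0.3544 with a pseudocount of 10 RPM (exact permutation p = 0.8171) and 2.158 without both pools numbered 6, which were left out for the level compared and so have no p here. Directions turned for Inhba (3.162) and Inhbb (1.18) in bulk with DESeq2, and without the neighboring pool 6 for Inhba (0.769). Without both pools numbered 6 they turned for Inhbb (2.051) and Acvr2b (0.09525) in bulk and Acvr1b between pools (0.02058). With 1 library left out, Acvr2b in bulk turned at 0.1503, 0.04353, 0.07696, 0.2063, 0.5284 and 0.01792, and Tgfbr3 at -0.09385. The ranges with 1 library left out were -5.304 to 0.769 for Inhba, -0.2903 to 0.5284 for Acvr2b and -0.09385 to 0.4417 for Tgfbr3. As a ratio of summed counts, Tgfbr3 by position turned in DRaqL-SMART-Seq v4 3'DE (-0.1668) and Acvr1b in DRaqL-Smart-seq2 (-0.0962). With a pseudocount of 10 RPM, calls of members fell from 20 to 13 by position, from 10 to 6 between dissociated and captured cells and from 18 to 6 by stage. The DRaqL-SC3-seq cells from GC073 alone gave 2 calls against 1. Of the other values, 1032 stayed within the spread between replicates or on their side of the threshold and 77 moved beyond it. The cause was not tested. LCM-seq and DRaqL-Smart-seq2 have no oocytes, so leaving out cells with oocyte RNA was not run there. Depth limits single cells most, the shallowest holding 12748 reads.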

Other observations

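The study's table of mixed profiles held 3 further DRaqL-SC3-seq granulosa cells that were kept out of the comparisons. The neighboring cell had 806 RPM of Inha beside 11800 RPM of oocyte markers. The 2 non-neighboring cells had 3799 and 4334 RPM of Inha. Inhba had no read in any of the 3 cells, and 1 of them held 681 RPM of Acvr2a.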
